A study of Homo sapiens with 8 samples.

Results

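The miRNAs described are 8 that are enriched in blood cells, followed through small RNA libraries of a kidney cancer cell line. They belong to the 3112 miRNAs in the count table, 1482 of which are known miRNAs. The 4 erythroid members are hsa-miR-451a, hsa-miR-144-3p, hsa-miR-144-5p and hsa-miR-486-5p, and the 4 leukocyte members are hsa-miR-142-3p, hsa-miR-142-5p, hsa-miR-150-5p and hsa-miR-223-3p, written without the species prefix from here on. The members and the 2 libraries set against the others, NC replicate 4 (NC4) and circSOD2-sh replicate 2 (sh2), were selected on their counts, known to be high there, so values of NC4 and sh2 are given as a description without a test.

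The libraries were made from 786O, an established human ccRCC (clear cell renal carcinoma) line. The 4 NC libraries (NC1 to NC4) came from cells given a negative control plasmid and the 4 circSOD2-sh libraries (sh1 to sh4) from cells given a plasmid with a short hairpin RNA against circSOD2, a circular RNA of the SOD2 gene. By the labels both plasmids went in with Lipofectamine 3000 and RNA was taken 48 h later, whereas the study's methods describe stable lines made with lentivirus and puromycin, and which hairpin these samples carried is not named. The comparison addresses which miRNAs change when circSOD2 is reduced. The labels do not say whether replicates were separate cultures, so p-values measure the spread between these samples only, which may be technical.

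Red cell precursors and leukocytes each carry miRNAs that are scarce in epithelial cells. miR-144 and miR-451a are made from one transcript that the factor GATA1 switches on during red cell maturation, and miR-451a is cut by AGO2 without Dicer. miR-142 is made throughout the blood lineages, miR-150 is abundant in mature lymphocytes and miR-223 in granulocytes and monocytes.

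The mature sequences are shown because each arm is counted by its own sequence and because the seed, the stretch through which a miRNA pairs with its targets, can be compared between members. RefSeq (GRCh38.p14) gave 5 of the 8, written 5′ to 3′ with the seed (bases 2 to 8) in capitals, and these 5 had 5 distinct seeds.
miR-144-3p: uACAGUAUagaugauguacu
miR-144-5p: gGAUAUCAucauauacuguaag
miR-142-3p: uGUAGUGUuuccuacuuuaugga
miR-142-5p: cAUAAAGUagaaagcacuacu
miR-223-3p: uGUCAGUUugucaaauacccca

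The hairpins lie at 5 loci (GENCODE release 29, GRCh38). MIR451A (chr17:28861369-28861440) and MIR144 (chr17:28861533-28861618) lie on the minus strand 92 bases apart, both in an exon of the long non-coding RNA AC024267.1. The 2 hairpins of miR-486 lie on opposite strands of the same stretch of chromosome 8 in an intron of ANK1, the gene of the red cell membrane protein ankyrin-1, and reads of the mature miRNA cannot be assigned to one of them. MIR142 (chr17:58331232-58331318, minus strand) overlaps an exon of the antisense RNA AC004687.1 on its own strand and an intron of TSPOAP1-AS1 on the other. MIR150 (chr19:49500785-49500868, minus strand) overlaps no other annotated gene, and MIR223 (chrX:66018870-66018979, plus strand) lies in an exon of the antisense RNA AL034397.3.

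Total counts were 6386872 to 9245044 in NC libraries and 3743860 to 4208276 in circSOD2-sh libraries. Predicted miRNAs, numbered by the authors, took 58.1% to 63.8% of the NC counts and 3.54% to 4.93% of the circSOD2-sh counts, so the 2 groups were compared after TMM scaling, and levels are normalized CPM, counts scaled to the TMM library size (CPM). On this scale a floor of 3 counts lies at 0.460 to 0.674 for NC libraries and at 0.509 to 0.601 for circSOD2-sh libraries. Counting intervals and floors cover counting error only, since reads carry no molecular identifiers. miR-21-5p, abundant in renal carcinoma lines, stood at 108129 to 154405 normalized CPM and the hypoxia miRNA miR-210-3p at 13.9 to 27.0 over the 8 libraries.

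The 8 members together were a small part of every library. They had 288, 206, 164 and 836 counts in NC1 to NC4 and 140, 422, 149 and 188 in sh1 to sh4. NC4 stood at 188 normalized CPM while NC1 to NC3 spanned 27.9 to 44.1, and sh2 stood at 74.4 while sh1, sh3 and sh4 spanned 23.8 to 33.4. Set against the median of the other 3 libraries of its group, the summed level was 5.92 times as high in NC4 and 2.49 times in sh2. In bulk samples, fewer cells of a type and less RNA per cell cannot be told apart.

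**Figure D1:**
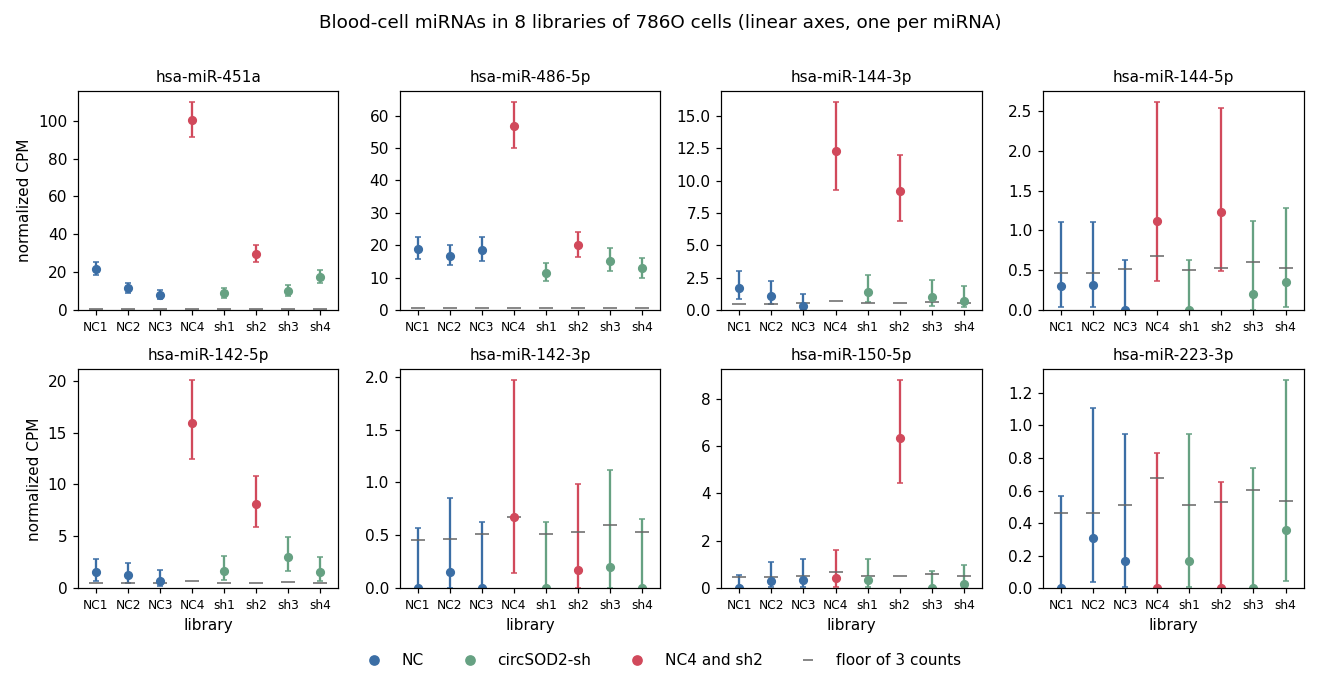
Normalized CPM (vertical, linear, one scale per miRNA) of each member in each of the 8 libraries (horizontal), with 95% Poisson intervals of the count as bars and the floor of 3 counts as a grey dash. NC4 and sh2, in red, are the highest of their groups for miR-451a, miR-486-5p, both arms of miR-144 and miR-142-5p, while miR-150-5p is above its floor in sh2 only and miR-142-3p and miR-223-3p in no library.

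Among erythroid members, miR-451a, which accumulates as red cells mature, had 21.8, 11.5, 7.84 and 100.4 normalized CPM in NC1 to NC4 and 8.83, 29.5, 10.2 and 17.4 in sh1 to sh4, from 46 to 447 counts per library. NC4 was 8.70 times the median of NC1 to NC3, and sh2 was 2.88 times the median of its group's other libraries. NC4 thus stood further from its group than sh2 did, and NC1 and sh4 were the highest of the remaining libraries.

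miR-486-5p, found in red cells and in muscle, had 123, 109, 109 and 253 counts in the NC libraries and 67, 113, 76 and 72 in the circSOD2-sh libraries. NC4 had 56.8 normalized CPM against 16.8 to 18.8, a ratio of 3.06 to the median. sh2 had 19.9 against 11.4 to 15.2, a ratio of 1.56. The lift in both libraries was smaller than that of miR-451a, and the other NC libraries lay closer together for miR-486-5p (18.1 ± 1.13 normalized CPM, SD, n = 3) than for miR-451a (13.7 ± 7.21, SD, n = 3).

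miR-144-3p, the more abundant arm of miR-144, had 11, 7, 2 and 55 counts in NC1 to NC4 and 8, 52, 5 and 4 in sh1 to sh4. NC4 had 12.3 normalized CPM against 0.341 to 1.69, 11.5 times the median, and sh2 had 9.17 against 0.711 to 1.36, 9.15 times the median. These 2 libraries held nearly the same number of miR-144-3p reads although NC4 held 447 reads of miR-451a and sh2 held 167. The other arm, miR-144-5p, had 2, 2, 0 and 5 counts in NC and 0, 7, 1 and 2 in circSOD2-sh. Its ratio to the pooled other libraries was 5.30 in NC4 (95% interval 1.14 to 26.7) and 6.79 in sh2 (1.55 to 40.7), so its size is poorly set at this depth.

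Among leukocyte members, miR-142-5p had 10, 8, 4 and 71 counts in NC1 to NC4 and 10, 46, 15 and 9 in sh1 to sh4. The level in NC4 was 15.9 normalized CPM against 0.681 to 1.53, or 13.0 times the median, and in sh2 8.11 against 1.60 to 3.01, or 4.78 times the median. NC4 and sh2 were the highest of their groups. The opposite arm, miR-142-3p, had at most 3 counts in any library (0, 1, 0 and 3 in NC and 0, 1, 1 and 0 in circSOD2-sh), at or under the floor throughout.

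miR-150-5p, the lymphocyte miRNA, had 0, 2, 2 and 2 counts in NC1 to NC4 and 2, 36, 0 and 1 in sh1 to sh4. It was above the floor in sh2 only, at 6.35 normalized CPM, and its ratio there to the pooled other circSOD2-sh libraries, which held 3 counts, was 34.9 (95% interval 11.0 to 177). In NC4, where miR-451a, miR-486-5p, miR-144-3p and miR-142-5p were at their highest, miR-150-5p stayed at 2 counts, as in NC2 and NC3.

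miR-223-3p, the granulocyte and monocyte miRNA, had 0, 2, 1 and 0 counts in NC and 1, 0, 0 and 2 in circSOD2-sh. Its 0 counts in NC4 and in sh2 allow a level of up to 0.674 and 0.529 normalized CPM at the floor of 3 counts, and of up to 0.828 and 0.651 at the upper end of the 95% Poisson intervals plotted, and no library passed the floor, so of the 4 leukocyte members only miR-142-5p and miR-150-5p did in any library. The remaining arms of these hairpins were as scarce, with miR-486-3p at 0 to 4 counts per library, miR-150-3p at 1 count in sh2 alone and miR-223-5p at 1 count in NC2 alone.

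With more than 3 counts required, 5 of the 8 members were higher in NC4 than in each other NC library and the same 5 were over 2 times as high. In sh2, 6 of 8 were higher than in each other circSOD2-sh library and 4 were over 2 times as high. Among the 463 known miRNAs that passed the filter on low counts, 26.6% were highest in NC4 and 5.18% over 2 times each other NC library, and 41.9% were highest in sh2 and 6.05% over 2 times each other circSOD2-sh library. Only miR-451a, miR-486-5p and miR-142-5p passed the filter, and the other 5 members did not. All 3 were highest in NC4 and over 2 times as high there as in each other NC library. All 3 were highest in sh2, where 1 was over 2 times as high as in each other circSOD2-sh library. The members were selected for this contrast, so nothing is read from their shares.

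Summed by class, erythroid members reached 171 normalized CPM in NC4 against 26.7 to 42.6 (5.75 times the median) and 59.8 in sh2 against 21.6 to 31.3 (2.24 times). Leukocyte members reached 17.1 in NC4 against 1.19 to 2.0 (11.1 times) and 14.6 in sh2 against 2.13 to 3.21 (6.63 times). The leukocyte sums had only 7 to 13 counts in each of NC1 to NC3 and 12 to 16 in each of sh1, sh3 and sh4. The erythroid sums had 157 to 278 and 127 to 176 counts there, so the leukocyte ratios are set by fewer reads. By these sums leukocyte members were the smaller class by level and the larger by ratio in both libraries. The order holds for the sums and not for each member. In NC4 miR-142-5p held 71 of the 76 leukocyte counts. In sh2 the erythroid miR-144-3p had a ratio of 9.15, above miR-142-5p (4.78) and under miR-150-5p (35.7). The excess over the median of the other libraries came to 688 counts in NC4, of which miR-451a held 396, and to 273 counts in sh2, of which miR-451a held 109, miR-144-3p 46.3, miR-486-5p 40.5, miR-142-5p 36.4 and miR-150-5p 35.0.

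**Figure D2:**
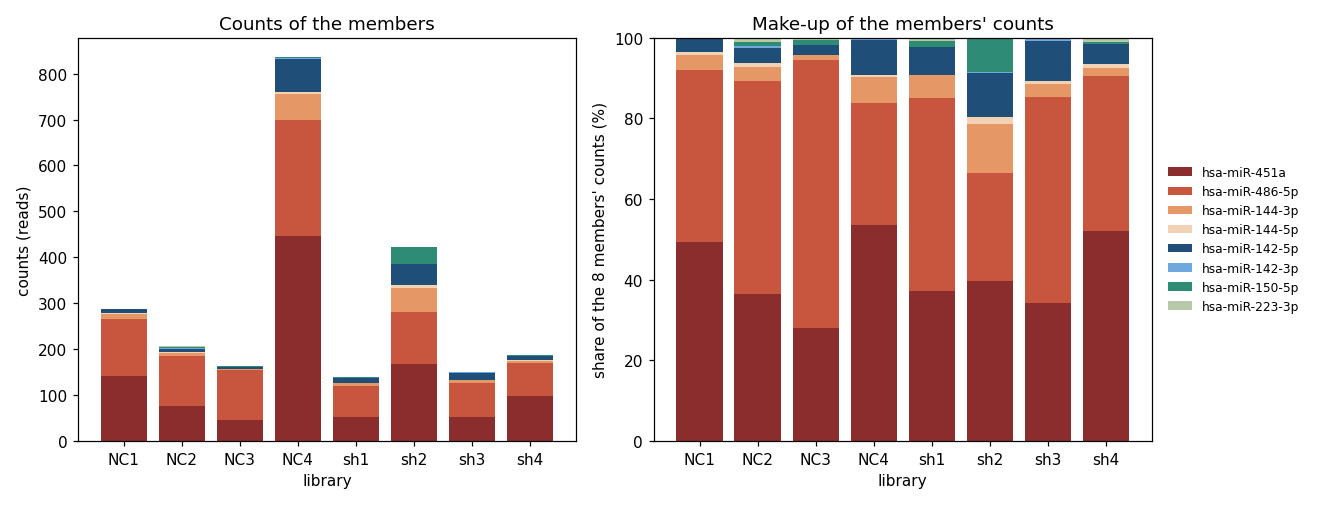
Left, counts of the 8 members stacked for each of the 8 libraries. Right, the same counts as a percentage of the members' counts in that library. Erythroid members (reds) hold 80.3% to 96.5% of the counts, the least in sh2, where miR-150-5p (green) holds 8.53%.

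The make-up of the members' counts is described by library, without a test. Erythroid members held 96.5%, 93.7%, 95.7% and 90.9% of them in NC1 to NC4 and 90.7%, 80.3%, 89.3% and 93.6% in sh1 to sh4, with sh2 the lowest of the 8. Of the reads of the shared miR-451a and miR-144 locus, miR-451a held 88.2% in NC4 (exact binomial 95% interval 85.0 to 90.8) and 73.9% in sh2 (67.7 to 79.5), and 86.7% to 95.8% in the other libraries. The share was thus the lowest of the 8 in sh2, while that of NC4 lay among the other libraries. miR-451a outnumbered miR-486-5p in NC1, NC4, sh2 and sh4 and was outnumbered by it in the other 4 libraries.

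Arm use differed between hairpins and, over all 8 libraries, favoured one arm of each. miR-142-5p held 96.6% of the reads of both miR-142 arms (95% interval 92.8 to 98.8, 173 counts against 6), and miR-486-5p held 98.9% of its 2 arms (98.0 to 99.5). miR-144-3p held 88.3% (82.4 to 92.8). In NC4 and sh2, miR-142-5p held 95.9% and 97.9%, and miR-144-3p held 91.7% and 88.1%, so the favoured arm was the same in both.

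Outside NC4 and sh2, the members fell into 3 tiers of normalized CPM, which counts reads per mature miRNA. miR-486-5p and miR-451a were the highest, at 18.1 ± 1.13 and 13.7 ± 7.21 in NC1 to NC3 and at 13.1 ± 1.95 and 12.2 ± 4.61 in sh1, sh3 and sh4 (SD, n = 3), and these neighbours overlapped in both groups. miR-142-5p and miR-144-3p came next, at 1.15 ± 0.431 and 1.03 ± 0.673 in NC and 2.10 ± 0.786 and 1.02 ± 0.324 in circSOD2-sh, overlapping in NC but not in circSOD2-sh. The other 4 members had at most 2 counts in each of these 6 libraries, under the floor.

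Marker miRNAs of other cell types were summed in the same libraries. Stromal and smooth muscle miRNAs (6 listed, led by miR-143-3p) stood at 690.5 normalized CPM in NC4 against 11.4 to 14.7, and at 279.9 in sh2 against 14.9 to 35.3. All 6 were the highest of the group in NC4 and in sh2, though miR-143-5p and miR-214-3p had only 3 counts, the floor, in sh2. Of the 463 known miRNAs tested, 26.6% were highest in NC4 and 41.9% in sh2 with more than 3 counts. The endothelial pair miR-126-3p and miR-126-5p stood at 650.1 against 334 to 348 and at 511 against 262 to 290. Both lists were thus high in NC4 and in sh2 together with the blood-cell members.

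Among the other lists, neural miRNAs (5 listed) stood at 524 in NC4, within the 521 to 559 of NC1 to NC3, but at 5232 in sh2 against 475 to 493. Kidney tubule miRNAs (4 listed) stood at 1064 in NC4 against 375 to 399. In sh2 they stood at 349 against 300.0 to 309, only 1.15 times the median. There miR-204-5p was at 28.9 against 1.24 to 1.53, miR-194-5p at 29.1 against 20.7 to 22.4 and miR-192-5p at 281 against 268 to 275. miR-215-5p lay within its range in sh2 (9.52 in 9.34 to 10.8). Striated muscle miRNAs (4 of 5 in the table) stood at 47.4 in NC4 against 9.37 to 15.7 and at 19.6 in sh2 within 10.7 to 30.4. In NC4, 3 of the 4 were the highest of the group, led by miR-206 (24.3 against 0 to 0.306), beside 26.6% of the known miRNAs tested. miR-1-3p was under the other NC libraries there (6.74 against 7.5 to 11.5). The liver miRNA miR-122-5p lay within its group's range in both (5.39 in NC4 and 2.29 in sh2). The part of these other cell types in the blood-cell values was not tested.

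**Figure D3:**
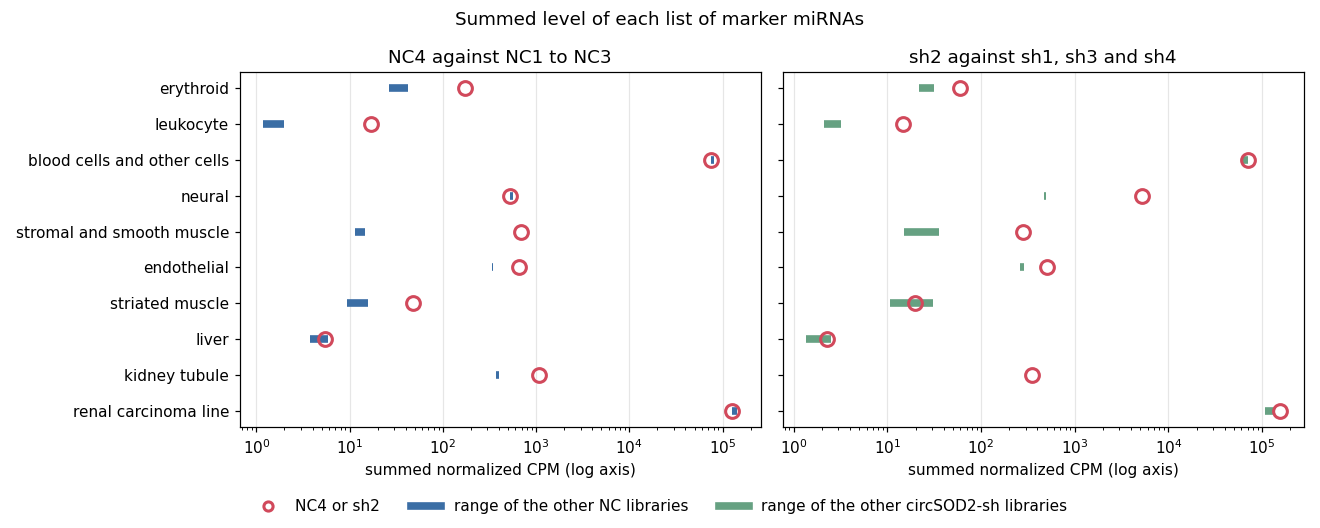
Summed normalized CPM (horizontal, log axis) of each list of marker miRNAs (vertical) in NC4 (left) and sh2 (right), as red circles, with the range of the other 3 libraries of the group as a bar. Erythroid, leukocyte, stromal, endothelial and kidney tubule lists lie to the right of the bar in both libraries, the striated muscle list in NC4 alone, and the neural and renal carcinoma line lists in sh2 alone.

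A further list held 10 miRNAs that blood cells carry but share with many other cells. Its sum was 75401 normalized CPM in NC4, within the 74623 to 81315 of the other NC libraries, and 70728 in sh2, within 63183 to 71157. Of its members, miR-16-5p was under the other NC libraries in NC4 (7922 against 8142 to 8790) and miR-126-3p over them (492 against 228 to 241). In sh2, 6 of the 10 were higher than in each other circSOD2-sh library, beside 41.9% of the 463 known miRNAs tested. Among them were miR-16-5p (6382 against 5166 to 5310), miR-181a-5p (3671 against 2953 to 3198), miR-342-3p (659 against 375 to 458) and miR-126-3p (368 against 188 to 201). In NC4, 2 of the 10 were the highest of the group, beside 26.6% of the known miRNAs tested. These 2, miR-126-3p and miR-126-5p, are also the endothelial pair. miR-146a-5p alone held 79.7% of the sum in NC4 and 71.8% in sh2, so the sum mostly follows that miRNA.

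The known miRNAs whose pattern was most like that of the members were found among 460 compared, by Pearson's correlation over the 8 libraries of log2(normalized CPM + 0.5) less the median of the group. For the erythroid sum they were miR-200a-3p (0.979), miR-199a-5p (0.96), miR-194-5p (0.94), miR-143-3p (0.939) and miR-874-3p (0.93). For the leukocyte sum they were miR-874-3p (0.997), miR-143-3p (0.986), miR-126-3p (0.98), miR-152-3p (0.949) and miR-200a-3p (0.944). These coefficients share the libraries NC4 and sh2 as extreme points and are a description. miR-874-3p, nearest to the leukocyte sum, stood at 13.5 normalized CPM in NC4 against 0 to 0.308 and at 50.3 in sh2 against 3.06 to 4.21.

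Between circSOD2-sh and NC, the 3 members that passed the filter had lower means in circSOD2-sh, and whether miR-486-5p passed the threshold depended on the tool and filter. edgeR called 65.7% of the 895 miRNAs tested, 298 higher and 290 lower in circSOD2-sh, at an adjusted p under 0.05, and 0 of the 3 members, which had 0 at an unadjusted p under 0.05 too. DESeq2 called 1 of the 3, miR-486-5p, and gave no adjusted p for miR-142-5p, beside 277 higher and 295 lower of all 895. limma on the deposited CPM with 1 or 0.1 added called 0 of the 3, beside 561 or 558 higher and 163 lower of all 895. Scaling by library totals gave a split of 613 higher and 158 lower over all miRNAs, and the median log2 fold change over the 895 moved from -0.00216 to 0.961.

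miR-451a was 35.4 ± 43.7 normalized CPM in NC and 16.5 ± 9.43 in circSOD2-sh (SD, n = 4), a log2 fold change of -1.09 (SE 0.76, edgeR adjusted p = 0.236). miR-486-5p was 27.7 ± 19.4 and 14.8 ± 3.75, a log2 fold change of -0.89 (SE 0.41, edgeR adjusted p = 0.0768). miR-142-5p was 4.85 ± 7.41 and 3.60 ± 3.07, a log2 fold change of -0.31 (SE 0.96, edgeR adjusted p = 0.782). In each case the SD in NC was set by NC4, and the groups overlapped.

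Without NC4 and sh2, edgeR called 69.7% of the 945 miRNAs tested and 1 of the 3 members. Both libraries were left out because members were known to be high there. The p-values of the members without them depend on that choice and are given as a description. miR-486-5p had 18.8, 16.8 and 18.6 normalized CPM in NC1 to NC3 and 11.4, 15.2 and 12.8 in sh1, sh3 and sh4, without overlap, and its log2 fold change was -0.57 (SE 0.16, edgeR adjusted p = 0.00906). With library totals, an alternative added after the data were seen, the same 6 libraries gave 0.51 (adjusted p = 0.0145), so the direction of miR-486-5p turned with the scaling. Relative to the median of all miRNAs tested (-0.131 with TMM and 0.945 with library totals) miR-486-5p was lower in both. With known miRNAs only, also added later, it was -0.32 (adjusted p = 0.0864).

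miR-451a gave a log2 fold change of -0.28 (SE 0.36, edgeR adjusted p = 0.505) in these 6 libraries and 0.80 (adjusted p = 0.0381) with library totals. For miR-142-5p it was 0.72 (SE 0.39, edgeR adjusted p = 0.118) and 1.78 (adjusted p = 0.000681). Its counts were 10, 8 and 4 in NC1 to NC3 and 10, 15 and 9 in sh1, sh3 and sh4. Here it passed the filter on low counts through the circSOD2-sh libraries alone, so nothing is read from its p-values. The log2 fold change of miR-142-5p turned from lower to higher in circSOD2-sh once NC4 and sh2 were left out. With NC4 alone left out it was 1.58 (adjusted p = 0.0633). With TMM, a share of 1 called among 3 is not above the 69.7% called over all miRNAs. With library totals, 3 of the 3 were called higher in these 6 libraries, beside 647 higher and 161 lower of all 945 tested. The median log2 fold change over all miRNAs was 0.945 there, with miR-451a (0.80) under it and miR-142-5p (1.78) over it.

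**Figure D4:**
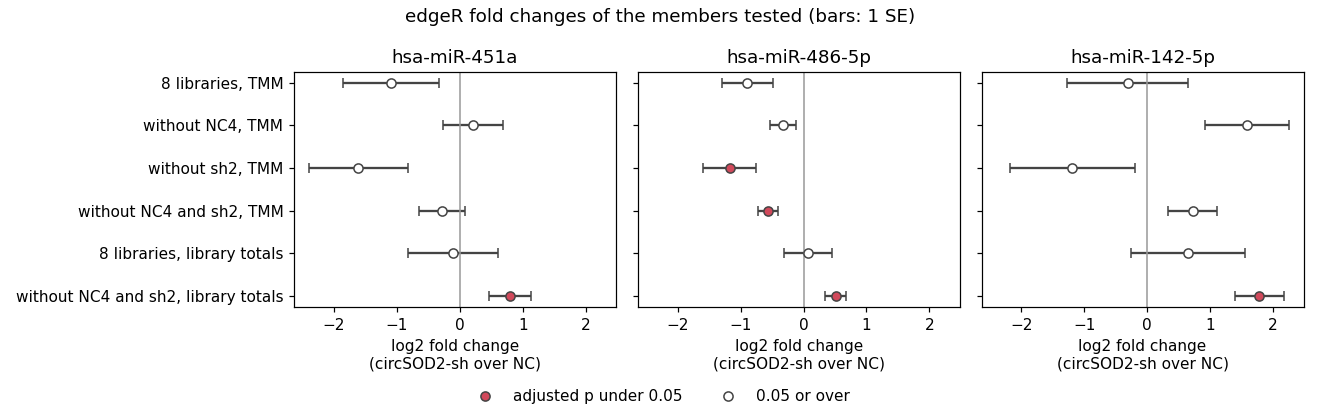
Log2 fold change of circSOD2-sh over NC (horizontal, bars 1 SE) from edgeR for the 3 members tested, by the libraries and scaling used (vertical). Filled circles passed an adjusted p of 0.05. Leaving out NC4 moves miR-142-5p from -0.31 to 1.58, and library totals move miR-486-5p from -0.89 to 0.07.

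The 5 members under the filter were read only from the fit without a filter, where edgeR called 21.0% of all 3112 miRNAs and 1 of the 8 members, miR-486-5p at -0.92 (adjusted p = 0.0258). miR-150-5p was 2.60 (SE 0.97, adjusted p = 0.06) there, and 36 of its 39 circSOD2-sh counts came from sh2. miR-144-3p, miR-144-5p and miR-223-3p lay between -0.30 and 0.13 and miR-142-3p at -0.86, none past the threshold in edgeR.

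Of the 10 shared blood-cell miRNAs, 9 were tested between the groups, and 2 rose and 3 fell in circSOD2-sh with a median log2 fold change of -0.31, beside -0.00216 and 65.7% called over all miRNAs tested. With library totals 8 of the 9 were higher and 0 lower, beside 613 higher and 158 lower of all 895 tested. Without NC4 and sh2, 2 were higher and 6 lower, beside 309 higher and 350 lower of all 945 tested. miR-342-3p, which lymphocytes also carry, rose by 5.54 (SE 0.24, edgeR adjusted p = 1.73e-08) and miR-92a-3p of the miR-17-92 cluster by 1.69 (SE 0.06, adjusted p = 6.11e-09). miR-16-5p fell by 0.58, miR-155-5p by 0.52 and miR-146a-5p by 0.31, and all 3 turned to higher with library totals (0.38, 0.44 and 0.65). miR-342-3p was high in all circSOD2-sh libraries (375 to 659 normalized CPM against 7.63 to 12.8 in NC), without overlap between the groups.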

How the data were processed

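Small RNA of 8 samples of 786O cells, 4 NC and 4 circSOD2-sh, was sequenced. The deposited counts are raw reads per mature miRNA, and the deposited CPM were computed by the authors. A table of their comparison (mean CPM, ratios, p-values, q-values and calls) was not used. The submitters' processing notes name FastQC 0.11.2, Trimmomatic 0.36, Bowtie 1.1.1 and GRCh38. The counting tool and miRNA annotation are not given in the sources used here. Columns were matched to samples by name.

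The main test was edgeR 4.0.16 in R 4.3.3 (filterByExpr, minimum count 10, TMM, quasi-likelihood test, Benjamini-Hochberg adjustment, threshold 0.05), after the fit was tested on simulated data. Alternatives were DESeq2 1.42.0, RLE, library totals, known miRNAs only, no filter, limma 3.58.1 on log2-transformed deposited CPM with 1 or 0.1 added (a scale that understates changes of low values), a replicate block, and libraries left out. Intervals and sums were made with Python 3.11.15 and scipy 1.17.1 and figures with matplotlib 3.10.9.

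The members and lists were chosen with earlier results of these data known. Named miRNAs are the 8 members, the other arms and neighbours of their hairpins, the 10 shared blood-cell miRNAs, the marker lists and the 5 known miRNAs most like each class. The neighbours miR-451b and miR-4732 were not analysed here. Within groups, libraries differed by more than sampling noise (chi-square per degree of freedom 9.45 to 128). Depth was 3743860 to 9245044 counts per library, and the floor was 3 counts.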

Additional observations from a re-analysis of the deposited data

Results flagged for a closer look

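Dixon's ratio at its 95% critical value served here as a flag and not as a test. By it, 1 library stood apart from the other 3 in 9 of 20 groups of 4 examined. Of these 9, 3 were sums of the same members. The ratio is passed in about 1 in 20 groups by chance, a rate that does not apply here, because members and libraries were chosen for these high values and the outcome was set by that choice. In NC it was NC4 each time, for miR-451a (100.4 normalized CPM), miR-144-3p (12.3), miR-486-5p (56.8), miR-142-5p (15.9), the erythroid sum (171) and the leukocyte sum (17.1). In circSOD2-sh it was sh2 each time, for miR-144-3p (9.17), miR-150-5p (6.35) and the leukocyte sum (14.6). For miR-451a, miR-486-5p and miR-142-5p, sh2 was the highest of its group without passing that ratio.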

How the results depend on the processing

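With library totals 613 miRNAs were higher and 158 lower in circSOD2-sh, with known miRNAs only 123 and 123, of 463 tested, and with limma on the deposited CPM plus 1 or plus 0.1, 561 or 558 higher and 163 lower in both. Without NC4 and sh2 they were 647 and 161 with library totals and 143 and 113 with known miRNAs only. With 1 library left out they were 256 to 303 higher and 279 to 358 lower.

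miR-451a turned to 0.26 and 0.30 with limma and to 0.80 without NC4 and sh2 under library totals, and ranged from -1.61 to 0.21 (without NC4) with 1 library left out. miR-486-5p turned to 0.07 with library totals, to 0.08 and 0.09 with limma and to 0.51 without NC4 and sh2 under library totals, and ranged from -1.17 to -0.33 with 1 library left out. It passed the threshold as lower in circSOD2-sh with DESeq2 (-0.95, adjusted p = 0.0163) and with no filter (-0.92, edgeR adjusted p = 0.0258). It also passed as lower without NC2 (-1.14, edgeR adjusted p = 0.0423), without sh2 (-1.17, edgeR adjusted p = 0.0294) and without NC4 and sh2 (-0.57, edgeR adjusted p = 0.00906). Without NC4 and sh2 under library totals it passed as higher (0.51, edgeR adjusted p = 0.0145). Over all alternatives its adjusted p ranged from 0.00906 to 0.86. The fit without sh2 and both fits without NC4 and sh2 left out libraries selected on the members' own counts, so nothing is read from their p-values. miR-142-5p turned to 0.65 with library totals, 0.69 and 1.15 with limma, 0.20 with the replicate block, 0.72 without NC4 and sh2 and 1.78 there under library totals, and ranged from -1.19 to 1.58 (without NC4) with 1 library left out. It did not pass the filter with known miRNAs only once both libraries were left out. The cause of these turns was not tested.

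The ratio of the leukocyte sum in sh2 was 6.25 with RLE, 6.03 with library totals, 6.05 with known miRNAs only and 6.11 with the deposited CPM. The other 3 ratios of class sums moved by less than 1 SD of the other libraries.

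The replicate block gave 296 higher and 278 lower. Deviations of same-numbered libraries correlated at 0.236, -0.0761, 0.0878 and -0.158, and 4 of 8 libraries correlated best with their own number, so the numbers were not taken to pair the samples. Counts of 0 to 7 per library limit miR-144-5p, miR-142-3p and miR-223-3p.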

Other observations

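The number of the 8 members with at least 1 count was 5, 8, 6 and 7 in NC1 to NC4 and 6, 7, 6 and 7 in sh1 to sh4, so NC4 and sh2 were not set apart by how many members were seen. NC2, in which all 8 had a count, had 206 member counts in all, fewer than NC1 with 288. The number with at least 10 counts was 4, 2, 2 and 4 in NC and 3, 5, 3 and 2 in circSOD2-sh, the highest in sh2.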
